A study of Mus musculus with 4 samples.

Results

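The serpins were taken as every gene in the deposited tables whose symbol begins with Serpin, with 5 pseudogene names that contain -ps left out. The rule gave 64 of 49997 genes, and 63 of them are described. The letter after Serpin names the clade, and 25 of the 63 genes fell in clade A, 28 in clade B, 2 each in clades E, F and I, and 1 each in clades C, D, G and H. Levels were measured by poly(A) RNA sequencing of mouse aorta-gonad-mesonephros (AGM) explants, the embryonic tissue in which the first haematopoietic stem cells form. All explants were from C57BL/6J embryos and were kept for 48 hours on membrane filters in a medium with hydrocortisone, per the labels' protocols. The untreated group held 2 libraries, and the other group held 2 libraries from explants given 5 µM CCCP for those 48 hours. CCCP is a protonophore that uncouples mitochondrial respiration, and the series asks how mitochondrial activity bears on the maturation of embryonic haematopoietic stem cells. The labels name embryonic days 10.5 and 11.5 in one field and day 10.5 alone in another, and they give no number of embryos per library.

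Serpins are a family of proteins with a shared fold. Most are suicide inhibitors: an exposed reactive centre loop is offered as bait to a protease, and once cut it drags the protease across the molecule and locks it in a dead complex. Many clade A serpins, and antithrombin, heparin cofactor II and α2-antiplasmin of clades C, D and F, are plasma proteins made chiefly by hepatocytes. Clade E members act on plasminogen activators around cells, clade B members stay mostly inside cells, and a few members have lost inhibition and serve as hormone carriers or chaperones.

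The 5 genes of the mouse α1-antitrypsin group that passed the count filter, Serpina1a to Serpina1e, lie side by side on chromosome 12, and their promoters are near copies. They are shown because these genes were low together in both CCCP libraries. The following are 80 bases upstream of each start on the minus strand of GRCm38.p6, from the RefSeq promoter table, written 5′ to 3′, with the motif GTTAAT in capitals.
Serpina1b, chr12:103738200-103738279: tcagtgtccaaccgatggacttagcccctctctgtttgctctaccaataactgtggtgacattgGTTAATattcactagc
Serpina1d, chr12:103773634-103773713: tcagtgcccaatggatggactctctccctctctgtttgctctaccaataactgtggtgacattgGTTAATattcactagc
Serpina1a, chr12:103863625-103863704: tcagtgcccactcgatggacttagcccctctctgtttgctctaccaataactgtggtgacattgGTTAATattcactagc
Serpina1c, chr12:103904962-103905041: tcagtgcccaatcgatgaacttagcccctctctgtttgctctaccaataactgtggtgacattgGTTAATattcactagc
Serpina1e, chr12:103956960-103957039: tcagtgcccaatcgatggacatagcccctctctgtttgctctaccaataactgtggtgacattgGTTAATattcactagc
Of the 80 positions, 70 were identical in all 5 genes, and any pair differed at 2 to 7 positions. GTTAAT is an arm of the palindromic binding motif of HNF1, a transcription factor of liver and kidney. It began 26 bases before the annotated start of Serpina1b, 16 before Serpina1d, 21 before Serpina1a, 27 before Serpina1c and 78 before Serpina1e. Searched on both strands, it occurred in 6.43% of the 32851 windows of 250 bases before a start in that table. A match of letters is a description and not a measured binding site.

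No serpin passed the test of CCCP against untreated libraries at an adjusted p-value under 0.05 (edgeR's quasi-likelihood test, Benjamini-Hochberg adjustment over all genes tested), and neither did any of the 19837 genes tested (0%). The smallest adjusted p of a serpin was 0.122, which was also the smallest over all genes. At an unadjusted p under 0.05, edgeR found 10 serpins lower and 2 higher in the CCCP libraries, beside 9.16% and 5.45% of all genes. DESeq2 on the same genes put 9 serpins lower and 1 higher at an adjusted p under 0.05, beside 2.7% and 0.297% of all genes. These 9 were Serpina6, Serpina10, Serpina1a, Serpina1b, Serpina1d, Serpina1e, Serpinc1, Serpind1 and Serpinf2, and the 1 higher was Serpinh1, while 3 tested serpins (Serpina3n, Serpinb2 and Serpinb10) got no adjusted p from DESeq2. Without the count filter edgeR tested 41 serpins and put 10 lower and 1 higher, beside 2.76% and 0.673% of all genes so tested, adding Serpina1c to the 10 of DESeq2. The fits that each left out 1 library put 2 to 7 serpins under the threshold with edgeR, beside 0.0491% to 0.214% of all genes, and Serpina6 and Serpinf2 were among them each time. Such a fit leaves 1 group with a lone library, which is then taken to vary like the other group. Because the main test called no serpin, differences below are given as levels and as estimates that did not pass it.

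Of the 63 serpins, 22 had no count in any library, among them 15 of clade B, 6 of clade A and Serpini2. Another 16 had counts but too few to test, with at most 24 reads over all 4 libraries. The 25 tested serpins comprised 9 of clade A, 8 of clade B, 2 of clade F and 1 each of clades C, D, E, G, H and I. Among these 25, 10 passed the count filter through the untreated libraries alone and none through the CCCP libraries alone, so counts over the tested serpins lean towards genes that were higher without treatment. With that limit, both CCCP libraries lay below both untreated libraries for 14 serpins and above for 4, and the groups overlapped for 7. Over all genes tested, 24.8% lay below and 24% above. The log2 fold change was under -2 for 10 serpins, beside 1.24% of all genes. The median log2 fold change was -0.68 over the 25 serpins and -0.01 over all genes tested.

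**Figure D1:**
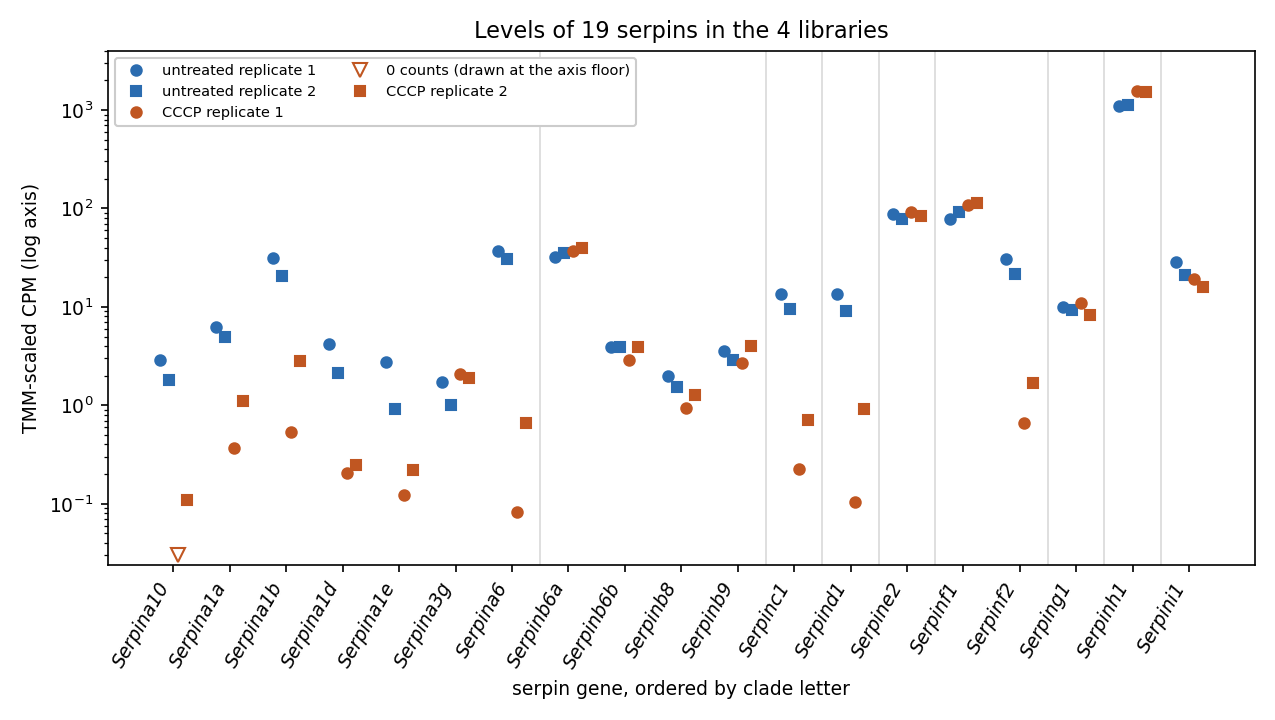
TMM-scaled CPM (read counts scaled to library size, log axis) of the 19 tested serpins with a mean of at least 1 CPM, ordered by clade letter; each point is 1 library, blue untreated and orange CCCP, circles replicate 1 and squares replicate 2. Serpina6 stood at 37.3 and 30.6 CPM untreated against 0.0824 and 0.662 CPM with CCCP, while Serpinh1 stood at 1088 and 1117 against 1578 and 1516 CPM.

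Summed over the described members of a clade, tested or not, clade A held 88.8 and 63.8 CPM without treatment and 4.18 and 8.16 CPM with CCCP. CPM here is the read count scaled to library size, with TMM factors. The mean of the clade A sum was 12.4-fold lower with CCCP, and the groups were far apart. In bulk RNA, fewer cells of a type and less RNA per cell cannot be told apart. Clade E sums, nearly all from Serpine2, were 87.0 and 77.9 CPM untreated and 91.8 and 83.4 CPM with CCCP. Clade B sums were 44.3 and 45.9 CPM untreated and 45.7 and 51.2 CPM with CCCP, and clade F sums were 108 and 114 against 110 and 117 CPM. These 3 clades differed little between groups beside the distance seen in clade A. The median log2 fold change of tested members was -3.43 in clade A (9 genes) and 0.25 over clades E, F and H together (4 genes), but with Serpinf2 at -4.51 on the clade F side the contrast did not follow the letters gene by gene. In clade A, Serpina6, Serpina10, Serpina1c, Serpina1d and Serpina1e passed the count filter through the untreated libraries alone, and no tested member of clades E, F and H did. The clade A median therefore leans towards genes that were higher without treatment, while the sums take in every described member. The difference between the clades was not tested, since the members were chosen with earlier results known and 2 libraries against 2 cannot give a two-sided exact permutation p below 0.333.

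**Figure D2:**
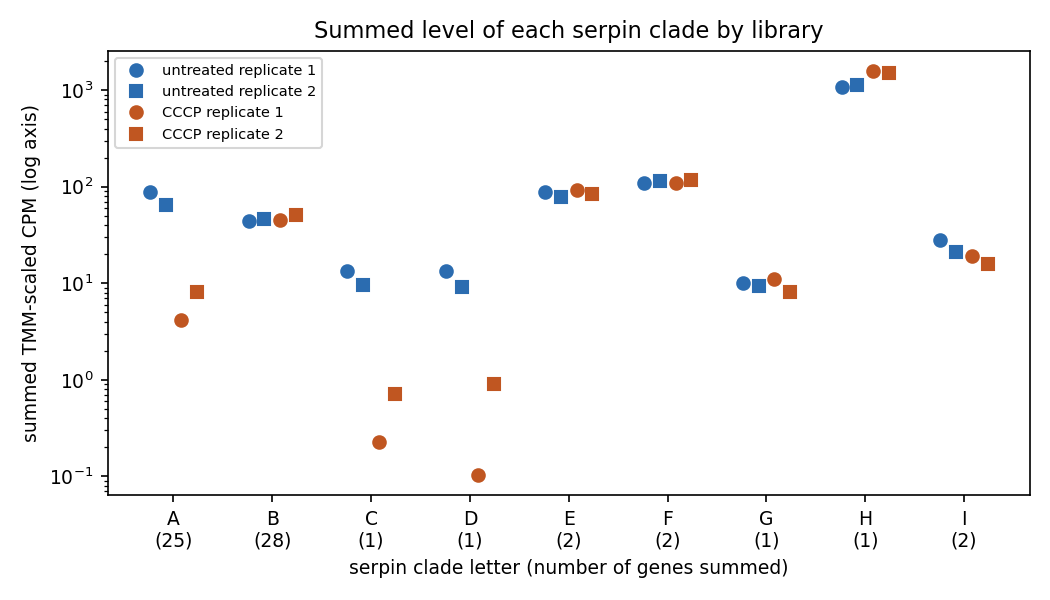
Summed TMM-scaled CPM (log axis) over the described members of each serpin clade, with the number of genes summed under each letter; each point is 1 library. The clade A sum was 88.8 and 63.8 CPM untreated and 4.18 and 8.16 CPM with CCCP, and clades C and D were lower with CCCP as well, whereas the points of clades B, E, F and G lay close together.

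As a share of the reads counted to the 63 serpins, clade A made up 6.00% (95% Wilson interval 5.83 to 6.17) and 4.35% (4.18 to 4.52) in the untreated libraries and 0.225% (0.196 to 0.258) and 0.453% (0.404 to 0.508) in the CCCP libraries. Serpinh1 alone made up 73.4% and 76.1% untreated and 84.8% and 84.2% with CCCP. The intervals cover counting error only, and since each mate of a read pair was counted singly they are too narrow.

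Hepatic marker transcripts differed in the same direction as clade A. Of 18 hepatic markers, all tested, 17 were lower in each CCCP library than in either untreated one, beside 24.8% of all genes. The groups overlapped for 1, and the median log2 fold change was -4.44. Some of these markers passed the count filter through the untreated libraries alone, so the count leans towards genes that were higher without treatment. None passed edgeR's test, and DESeq2 put 11 of them lower at an adjusted p under 0.05, beside 2.7% of all genes. Albumin (Alb) stood at 376 and 151 CPM untreated and 0.165 and 11.1 CPM with CCCP, and α-fetoprotein (Afp), the fetal plasma carrier, at 860 and 577 CPM against 1.69 and 44.9 CPM. CCCP replicate 1 was the lowest library for both. The 18 markers summed to 1094 to 1898 CPM without treatment and 64.9 to 129 CPM with CCCP. Ahsg, Fga and Apoh, named here after their values were seen, were at 0 in CCCP replicate 1, and none was at 0 in the other 3 libraries. Transthyretin (Ttr) stood at 16.2 and 8.16 CPM against 0.824 and 1.05 CPM, and apolipoprotein A-II (Apoa2) at 21.4 and 14.2 CPM against 0.350 and 1.24 CPM. The part of hepatic tissue in the serpin differences was not tested.

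Within clade A, α1-antitrypsin is an inhibitor of neutrophil elastase and related serine proteases. Whether the product of each mouse gene of the group acts so was not tested here. Serpina1b (chr12:103728156-103738189) stood at 31.3 and 20.8 CPM untreated and at 0.536 and 2.81 CPM with CCCP. The groups did not overlap and the mean was 15.6-fold lower, with a log2 fold change of -4.00 (SE 0.70, adjusted p = 0.150, edgeR quasi-likelihood). Serpina1a stood at 6.29 and 4.92 CPM untreated against 0.371 and 1.10 CPM, 7.61-fold lower. Serpina1d stood at 4.2 and 2.14 CPM untreated against 0.206 and 0.248 CPM, 13.9-fold lower. Both genes showed each CCCP library well under each untreated library. Serpina1e stood at 2.76 and 0.909 CPM untreated against 0.124 and 0.221 CPM, 10.7-fold lower, so that its untreated libraries differed from each other by 3.03-fold. Serpina1c, with the fewest counted reads of the 5 tested, had a log2 fold change of -2.19, which was -0.78 without untreated replicate 1. The sixth gene of the group, Serpina1f, had no count. The paralogs share long identical stretches, and of the 50-base stretches of their transcripts 57.6% in Serpina1a, 29.5% in Serpina1b, 74.2% in Serpina1c, 50.9% in Serpina1d and 34.6% in Serpina1e also occur in another gene. Reads that aligned to several places were not counted, so the split among paralogs is uncertain. Their sum lacks such reads too but is the safer value: 46.0 and 29.1 CPM untreated against 1.44 and 4.58 CPM with CCCP. The mean untreated sum was 26.0-fold that of CCCP replicate 1 and 8.21-fold that of CCCP replicate 2.

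Serpina6 encodes corticosteroid-binding globulin, a clade A member that carries glucocorticoids in plasma and does not inhibit proteases. With all 4 libraries it had the largest estimated difference of any tested serpin. Its counts (chr12:103646630-103657218) were 1865 and 1143 reads untreated and 4 and 24 reads with CCCP, that is 37.3 and 30.6 CPM against 0.0824 and 0.662 CPM. The mean was 91.2-fold lower, with a log2 fold change of -6.61 (SE 0.659, adjusted p = 0.122, edgeR quasi-likelihood). With 1 library left out, the log2 fold change ran from -8.63 (without CCCP replicate 2) to -5.67 (without CCCP replicate 1). None of its 50-base stretches occurs in another gene. Per kilobase of exon, the scale on which genes can be set beside each other, it averaged 21.05 CPM per kilobase untreated, between Serpine2 (32.2) and Serpina1b (18.3), and 0.231 with CCCP. The order of Serpina6 and Serpina1b is uncertain. Reads aligned to several places were not counted, and 29.5% of the 50-base stretches of Serpina1b occur in another gene. Serpina1b is also annotated on an alternate contig, and what that does to its count was not tested.

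Serpina10, the protein Z-dependent inhibitor of activated coagulation factor X, had 145 and 68 reads untreated and 0 and 4 reads with CCCP. The pooled count ratio of CCCP to untreated was 0.0194 (95% interval 0.00523 to 0.0503). That interval covers counting error alone, not the spread between libraries, and is too narrow because mates were counted singly. Of the Serpina3 genes, a mouse-expanded group related to α1-antichymotrypsin, only Serpina3g and Serpina3n were tested, and these did not share this pattern. The other Serpina3 genes had no reads or too few to test. Serpina3g stood at 1.74 and 1.02 CPM untreated and 2.08 and 1.90 CPM with CCCP (log2 fold change 0.53, SE 0.405), and Serpina3n had a log2 fold change of -0.05. All 11 Serpina3 genes summed to 2.46 and 2.09 CPM untreated and 2.60 and 2.76 CPM with CCCP. Without them, the other 14 clade A genes summed to 86.4 and 61.7 CPM untreated and 1.59 and 5.40 CPM with CCCP, 21.2-fold lower. The fold was 46.7 against CCCP replicate 1 alone and 13.7 against CCCP replicate 2 alone.

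**Figure D3:**
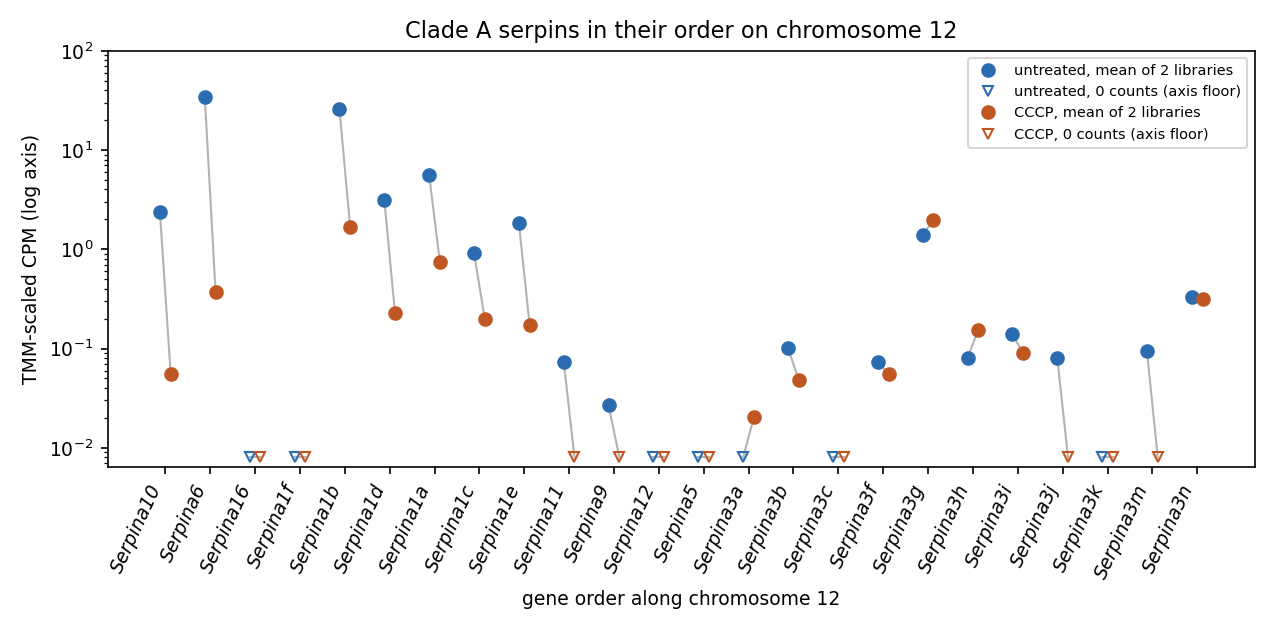
Mean TMM-scaled CPM (log axis) of the 24 clade A serpins of chromosome 12 in their order along the chromosome, with a line joining the untreated mean (blue) and the CCCP mean (orange) of each gene; open triangles at the axis floor mark groups with 0 counts. The 7 genes from Serpina10 to Serpina1e with counts in the untreated group had lower CCCP means, while Serpina3g and Serpina3n, farther along, lay near their untreated means.

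On chromosome 12, 24 clade A genes occupy 798 kb (chr12:103616675-104414334), and Serpina7 is on chromosome X. Along this stretch Serpina10 and Serpina6 come first, the Serpina1 genes next and the Serpina3 genes last. The 7 tested genes at the Serpina10 end were low in both CCCP libraries, and the 2 tested genes at the Serpina3 end were not. Whether position bears on the difference was not tested.

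The plasma serpins of coagulation and fibrinolysis outside clade A showed the same direction. Serpinc1, antithrombin, which blocks thrombin and activated factor X, stood at 13.5 and 9.49 CPM untreated and 0.227 and 0.717 CPM with CCCP. That was 24.4-fold lower, with a log2 fold change of -4.65 (SE 0.539, adjusted p = 0.133, edgeR quasi-likelihood). Serpind1, heparin cofactor II, a thrombin inhibitor, stood at 13.4 and 9.06 CPM untreated and 0.103 and 0.910 CPM with CCCP, 22.2-fold lower. Serpinf2, α2-antiplasmin, the main plasma inhibitor of plasmin, stood at 30.5 and 21.6 CPM untreated and 0.659 and 1.68 CPM with CCCP. Its mean was 22.3-fold lower, with a log2 fold change of -4.51 (SE 0.460, adjusted p = 0.122, edgeR quasi-likelihood). In none of the 3 genes did the groups overlap. CCCP replicate 2 was above CCCP replicate 1 in each, by 3.16-fold for Serpinc1, 8.83-fold for Serpind1 and 2.55-fold for Serpinf2, and Serpina1b and Serpina6 differed the same way by 5.25-fold and 8.03-fold. The sizes of these differences therefore depend on the library: Serpind1 had a log2 fold change of -6.72 without CCCP replicate 2, and the highest value with another library left out was -3.62.

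**Figure D4:**
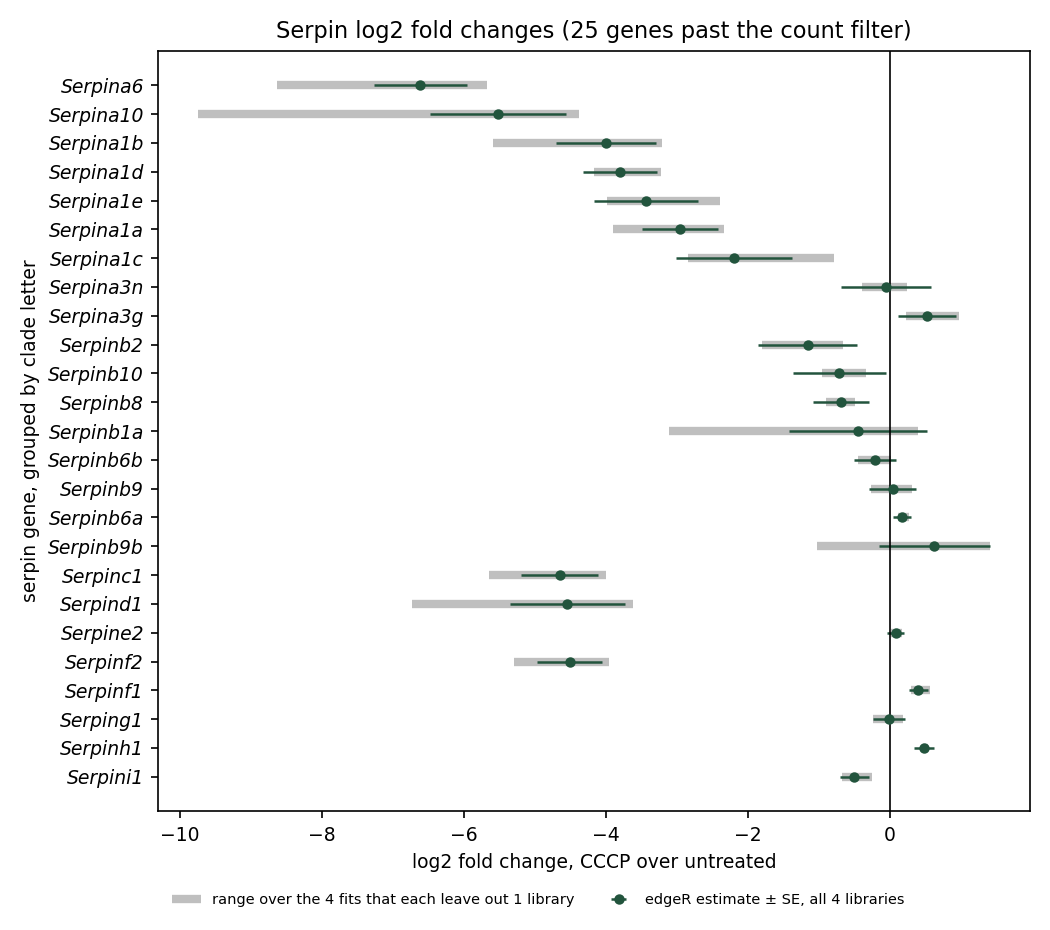
Log2 fold change of CCCP over untreated for the 25 tested serpins, by clade letter; dots are edgeR estimates with bars of 1 SE, and grey bands span the 4 fits that each leave out 1 library (the far end for Serpina10 comes from a fit whose lone CCCP library had 0 reads and is no bound). Estimates for 7 clade A genes, Serpinc1, Serpind1 and Serpinf2 lay under -2, and all others lay above -2.

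Serpinf1 and Serpinf2 are neighbours on chromosome 11, 9.11 kb apart, and their estimates had opposite signs. Serpinf1 (chr11:75410029-75422623) encodes pigment epithelium-derived factor, a secreted antiangiogenic protein that inhibits no protease. It stood at 77.3 and 91.9 CPM untreated and 109 and 115 CPM with CCCP. Both CCCP libraries were above both untreated ones, by 1.32-fold in the mean, with a log2 fold change of 0.41 (SE 0.130, unadjusted p = 0.0199, adjusted p = 0.272, edgeR quasi-likelihood). DESeq2 gave an adjusted p of 0.199. The neighbour Serpinf2 (chr11:75431736-75439501) shares 23 exon bases with Gm35391 on the opposite strand, and strand was not used in counting. The 250 bases before each start, both on the minus strand of GRCm38.p6, are printed because the adjacent genes had estimates of opposite sign, with the GATA-type motif AGATAA (or TTATCT on the other strand) in capitals.
Serpinf1, chr11:75422624-75422873: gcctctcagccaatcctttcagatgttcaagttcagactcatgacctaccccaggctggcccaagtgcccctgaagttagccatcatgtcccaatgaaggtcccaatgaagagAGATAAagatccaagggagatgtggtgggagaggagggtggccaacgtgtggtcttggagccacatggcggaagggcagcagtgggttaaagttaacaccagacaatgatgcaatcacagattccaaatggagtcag
Serpinf2, chr11:75439502-75439751: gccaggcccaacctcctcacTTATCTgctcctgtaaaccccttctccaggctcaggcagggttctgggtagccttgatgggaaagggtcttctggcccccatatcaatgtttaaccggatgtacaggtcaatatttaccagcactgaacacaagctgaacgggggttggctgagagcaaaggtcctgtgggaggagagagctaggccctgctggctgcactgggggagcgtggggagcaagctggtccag
AGATAA was found in 9.99% of all windows, so a match in both is a description and does not set the pair apart. GTTAAT was in neither window.

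Serpinh1, known as HSP47, is a chaperone of the endoplasmic reticulum that binds procollagen and inhibits no protease. It was the most abundant serpin in every library, per kilobase as well, at 451 CPM per kilobase untreated and 633 with CCCP, with Serpinf1 next at 56.6 and 75.05. Its level (chr7:99345375-99353239) was 1088 and 1117 CPM untreated and 1578 and 1516 CPM with CCCP. The groups were apart by more than their spread, and the mean was 1.40-fold higher. The log2 fold change was 0.49 (SE 0.142, unadjusted p = 0.0132, adjusted p = 0.251, edgeR quasi-likelihood), and DESeq2 gave an adjusted p of 0.0176. Genes of similar exon length (1400 to 2600 bases, 4098 genes) had a median log2 fold change of 0.14 with quartiles of -0.18 and 0.33, and the Serpinh1 estimate lay above that upper quartile. The 250 bases before its start, on the minus strand of GRCm38.p6, are shown as those of the most abundant serpin, with the core ACGTG of the HIF motif (CACGT on the other strand) in capitals.
Serpinh1, chr7:99353240-99353489: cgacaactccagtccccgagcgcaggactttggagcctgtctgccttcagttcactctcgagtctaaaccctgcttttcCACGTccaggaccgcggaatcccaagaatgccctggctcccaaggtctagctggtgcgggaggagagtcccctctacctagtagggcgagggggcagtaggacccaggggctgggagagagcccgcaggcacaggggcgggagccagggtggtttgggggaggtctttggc
ACGTG occurred in 16.6% of all windows. Neither spacing of the heat shock element searched, GAANNTTC (6.69% of windows) or TTCNNGAA (7.17%), was in these letters. In the 80 and 250 bases printed above, no motif that was searched overlapped another.

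Of the 20 collagen folding and modification partners of Serpinh1, both CCCP libraries were above the untreated ones for 9 and below for 4, beside 24% and 24.8% of all genes. The groups overlapped for 7, and the median log2 fold change was 0.10. Ppib, a prolyl isomerase of the endoplasmic reticulum, stood at 84.1 and 84.5 CPM untreated and 120 and 112 CPM with CCCP. Plod2, a lysyl hydroxylase of collagen, stood at 135 and 124 CPM untreated and 89.2 and 85.8 CPM with CCCP, and DESeq2 gave it an adjusted p of 0.0143. So the chaperone partner Ppib was higher, and Plod2 lower, in both CCCP libraries. The groups overlapped for 2 fibrillar collagens, with Col3a1 at 2303 and 1306 CPM untreated and 1975 and 1491 CPM with CCCP and Col1a2 at 1494 and 671 against 1262 and 780 CPM. None of the 20 passed edgeR's test.

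Among serpins that act around cells, Serpine2, protease nexin 1, an inhibitor of thrombin and urokinase at cell surfaces, stood at 86.9 and 77.9 CPM untreated and 91.6 and 83.4 CPM with CCCP, and the groups overlapped. Serpine3 had too few reads to test. Serping1, the C1 inhibitor of the complement and contact systems, stood at 10.0 and 9.36 CPM untreated and 11 and 8.19 CPM with CCCP, again with overlap. Serpini1, neuroserpin, an inhibitor of tissue plasminogen activator in neurons, stood at 28.3 and 20.9 CPM untreated and 19.1 and 15.9 CPM with CCCP, 1.41-fold lower in the mean without overlap (log2 fold change -0.50, SE 0.206, adjusted p = 0.344, edgeR quasi-likelihood). Per kilobase, Serpini1 at 7.77 and Serping1 at 5.26 CPM per kilobase in untreated libraries were near Serpinc1 at 5.53, and with CCCP they were at 5.51, 5.21 and 0.227.

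Clade B serpins guard the inside of cells against leaked granule and lysosomal proteases. Of 28 genes, 8 were tested. Serpinb6a, an inhibitor of granulocyte proteases such as cathepsin G, was the most abundant, at 32.2 and 35.4 CPM untreated and 37.3 and 39.3 CPM with CCCP. All CCCP values were above the untreated ones, by 1.13-fold in the mean, with a log2 fold change of 0.18 (SE 0.127, adjusted p = 0.533, edgeR quasi-likelihood). Some of its exon bases are shared with Ripk1 on the opposite strand. Serpinb9, the mouse counterpart of the granzyme B inhibitor, stood at 3.56 and 2.89 CPM untreated and 2.68 and 4.00 CPM with CCCP. Serpinb6b stood at 3.96 and 3.88 CPM untreated and 2.86 and 3.94 CPM with CCCP. The groups overlapped for both. Serpinb8 stood at 2.0 and 1.55 CPM untreated and 0.948 and 1.27 CPM with CCCP, lower in both CCCP libraries (log2 fold change -0.68, SE 0.393). The other 4, Serpinb2, Serpinb10, Serpinb1a and Serpinb9b, averaged under 1 CPM, with log2 fold changes of -1.15 to 0.63.

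The motif search over the tested serpins covered 21 of 25 genes, since Serpina6, Serpina10, Serping1 and Serpinb1a had no window in the RefSeq table. GTTAAT was in 5 of the 8 windows of serpins with a log2 fold change under -2, all 5 of them Serpina1 genes with near-identical windows, and in 1 of the other 13, Serpinb8. The hepatic motif CAAAGTC of HNF4 (3.84% of all windows) was in none of those 8 and in Serpinh1. A control motif of GC-rich letters, GGGTGG (28.1% of all windows), was in 6 of the 8 and 7 of the 13.

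Proteases and cofactors on which serpins act were read from a list of 32 genes, 26 of them tested. Both CCCP libraries lay below the untreated ones for 13 and above for 4, beside 24.8% and 24% of all genes, and the groups overlapped for 9, with a median log2 fold change of -0.47. As with the serpins, some members passed the count filter through the untreated libraries alone, so these counts lean towards genes higher without treatment. No gene of the list passed edgeR's test, and DESeq2 put 8 lower and none higher, beside 2.7% and 0.297% of all genes. Plasminogen (Plg), the precursor of the plasmin that Serpinf2 inhibits, stood at 42.7 and 24.1 CPM untreated and 0.124 and 0.965 CPM with CCCP. Prothrombin (F2), whose product thrombin is inhibited by Serpinc1 and Serpind1, stood at 15.2 and 6.07 CPM untreated and 0.124 and 0.165 CPM with CCCP. Both are liver-made zymogens, and both were lower in each CCCP library. The lysosomal protease Ctsl (173 and 214 CPM untreated, 203 and 230 CPM with CCCP) and Lrp1 (919 and 482 against 628 and 549 CPM), the endocytic receptor that clears serpin-protease complexes, overlapped between groups.

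The libraries held 48216849 and 37360968 counted reads untreated and 48827826 and 37579087 with CCCP, replicates 1 and 2. The samples are labelled as embryonic haematopoietic stem cells and the design names c-kit+ cells, while the extraction protocol names explants. Kit stood at 51.3 and 63.2 CPM untreated and 47.6 and 51.7 CPM with CCCP, with overlap. Ptprc, the pan-leukocyte CD45, stood at 6.85 and 6.82 CPM untreated and 3.65 and 3.39 CPM with CCCP, lower in both CCCP libraries (adjusted p = 0.216 with edgeR, 0.0459 with DESeq2). Spi1 stood at 4.63 and 3.85 CPM untreated and 5.71 and 5.65 CPM with CCCP, higher in both. Of 8 stem and progenitor markers, 7 were tested. Both CCCP libraries were below the untreated ones for 2 and above for 1, beside 24.8% and 24% of all genes, and the groups overlapped for 4. Markers of mesenchyme (3383 to 5795 CPM summed over 10 genes), neural cells (844 to 1043 over 7), endothelium (503 to 648 over 8) and erythroid cells (376 to 643 over 6) were counted in all 4 libraries. The median log2 fold change was between -0.68 and 0.41 for each of the 9 marker lists other than the hepatic one. All 6 megakaryocyte and all 6 visceral endoderm markers had negative log2 fold changes, with medians of -0.68 and -0.23. The groups overlapped for 4 of the former and 5 of the latter, and each other list of the 9 held both signs. Nothing in the labels says whether libraries of a group came from separate embryos, so p-values measure the spread between these libraries only.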

How the data were processed

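The authors deposited 1 table of raw counts per gene for each of 4 libraries. Per the file headers, counts were made with featureCounts 2.0.3 over exons of the mm10 NCBI RefSeq annotation. The library kit was directional, per the labels, but counting ignored strand; mates of a pair were counted singly, and reads with several alignments were dropped. The submitters' processing notes list FastQC, HISAT2, SAMtools and Subread. Groups came from the sample titles, and replicate numbers 1 and 2 from the same titles. The header of untreated replicate 1 differs by a letter from its title, and the sample was taken from the file record.

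From the counts as deposited, edgeR 4.0.16 in R 4.3.3 fitted CCCP against untreated over all 4 libraries (TMM scaling, filterByExpr with minimum count 10 and minimum total 15, quasi-likelihood test, two-sided, Benjamini-Hochberg adjustment over 19837 genes, threshold 0.05). An SE is the size of the log2 fold change divided by the square root of F. The filter corresponds to 0.233 CPM. The biological coefficient of variation was 21.9%. DESeq2 1.42.0, 2 other scalings, no filter, a replicate block and leaving out each library were alternatives. The scripts were tested on simulated data.

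Serpins past the filter with a mean of at least 1 CPM are named with every value (19 genes); of each context list up to 4 genes are named, the 2 of highest mean CPM and the 2 of smallest p (Ahsg, Fga, Apoh and Itih1 are named besides, for being at 0 in a library). The serpins, lists and tests were chosen with earlier results of these data known. Serpina1a and Serpina1b are annotated on an alternate contig as well, and their exon length was taken on chromosome 12 alone. Promoters came from the RefSeq table of GRCm38.p6, with 54 of 63 serpins matched; identical 50-base stretches were sought in GENCODE transcripts. The values of 1 serpin are not reported here. Protein sequences were not used here. A count of 3 corresponds to 0.0599 to 0.0827 CPM.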

Additional observations from a re-analysis of the deposited data

How the results depend on the processing

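With edgeR the count of genes past the threshold was 0 with all libraries and with either other scaling. It was 594 with DESeq2 (535 lower, 59 higher), 1107 with no filter on low counts and 10 to 46 with 1 library left out. For serpins, the count of 0 became 10 with DESeq2, 11 with no filter and 2 to 7 with 1 library left out. The cause was not tested. With the replicate number as a block, 2118 genes passed (6.88% of genes lower, 3.8% higher), 11 of them serpins (9 lower, 2 higher), and Serpinf1 (adjusted p = 0.0313 with the block) joined the genes called by DESeq2. No label says what the numbers mark, and deviations of same-numbered libraries correlated at 0.36 over 2 pairs. In all, 10 serpins passed under each of DESeq2, no filter and the block. With 1 library left out, medians of log2 fold change ran from -3.98 to -2.75 in clade A, 0.02 to 0.18 in clade E, -2.46 to -1.75 in clade F, 0.47 to 0.54 in clade H and -3.00 to -2.12 over clades C, D, G and I; clade H was at 0.43 with library totals alone. The clade A medians lean towards genes that were higher without treatment, as stated above. Of 19 named serpins, 16 kept their direction under all 9 alternatives. The other 3 changed sign. Serping1 turned to 0.0022 with no filter and ran from -0.24 to 0.19 with 1 library left out. Serpinb6b ran from -0.44 to 0.015 and Serpinb9 from -0.26 to 0.32. Serpinb9 turned to -0.018 with library totals alone. Counts of 0 to 33 reads per CCCP library limit the precision of Serpina6, Serpina10, Serpina1d, Serpina1e, Serpinc1 and Serpind1.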

Other observations

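Protease inhibitors of other families were read from a list of 27 genes, 22 of them tested. Both CCCP libraries lay below the untreated ones for 12 and above for 4, beside 24.8% and 24% of all genes, and the groups overlapped for 6. Some members, Itih1 among them, passed the count filter through the untreated libraries alone, so these counts lean towards genes higher without treatment. The median log2 fold change was -0.58. Itih1 was at 0 in both CCCP libraries, and the median does not depend on how far below it that gene lies. None passed edgeR's quasi-likelihood test at an adjusted p under 0.05. DESeq2 put 7 lower and none higher, beside 2.7% and 0.297% of all genes. The inter-α-trypsin inhibitor heavy chains, liver-made proteins that bind hyaluronan, were among the low ones. Itih3 stood at 16.6 and 9.47 CPM untreated and 0.0824 and 0.386 CPM with CCCP, and Itih4 at 3.90 and 2.75 CPM against 0.0412 and 0.0551 CPM. Of the tissue inhibitors of metalloproteinases, Timp2 stood at 125 and 93.1 CPM untreated and 131 and 110 CPM with CCCP, with overlap. Timp3 stood at 166 and 152 CPM untreated and 139 and 142 CPM with CCCP, lower in both CCCP libraries (log2 fold change -0.18). The list shares Ahsg with the hepatic markers.

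Of the 5 serpin pseudogene names left out, 3 had no count in any library. Serpinb1-ps1 had 5 and 0 reads untreated and 2 and 0 with CCCP, and Serpina3e-ps had 2 and 0 untreated and 3 and 1 with CCCP.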
